A study of Mus musculus with 8 samples.

Results

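The antioxidant and redox genes examined here are 35 genes whose products remove superoxide and peroxides, keep glutathione and thioredoxin reduced, or control those enzymes. They were taken by name, under the current or an older symbol, from the probes of 8 one-colour Agilent whole mouse genome arrays. The 35 genes had 56 probes among the 41048 probes with a value on every array, and 22 of them had 1 probe only. Of the 35, 34 could be tested among 23129 genes and unnamed probes. The gene left out of the tests was Gpx7, whose single probe was well above background on 3 arrays but never on both arrays of a group.

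The arrays measured RNA from mouse haematopoietic stem cells (HSC), the blood-forming cells of the marrow, recovered by flow cytometry after transplantation. The donor cells were wild type (WT) or carried a knockout (KO) of E47, a transcription factor made from the Tcf3 gene. They were taken from primary recipients or from secondary recipients, the usual second round of a serial transplant. Each of the 4 groups had 2 arrays. In all 4 groups the sorted cells were lysed and their cDNA was amplified by a global PCR at a company before Cy3 labelling. Strain, age, conditioning of the recipients, the knockout allele's construction and the number of cells do not appear in the sources used here. Nothing in the labels says whether the arrays of a group came from separate mice, so the p-values reflect how far these arrays differ, a spread that could be technical.

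Cells make superoxide as a by-product of respiration and of NADPH oxidases. Superoxide dismutases turn it into hydrogen peroxide, which catalase, glutathione peroxidases and peroxiredoxins remove. Glutathione peroxidases and peroxiredoxins draw their reducing power from glutathione and thioredoxin, which glutathione reductase and thioredoxin reductases recycle with NADPH. NRF2, the product of Nfe2l2, switches on many of these genes through the antioxidant response element. KEAP1 holds NRF2 down by marking it for degradation until oxidants modify KEAP1. HSC are known to be sensitive to reactive oxygen species, which push them out of quiescence.

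Probe sequences from the scanner files are shown for 6 probes, 5′ to 3′, with their mm8 positions. A probe whose genomic span exceeds its 60 bases crosses an exon junction and so lies in spliced exons. No annotation of mm8 was used, so the exon numbers are not given. The Keap1 and Gclm probes gave 2 of the differences between recipients, Txnrd2 one of the opposite sign, and the Prdx1 probe a very high value on WT primary 2. The Prdx2 and Prdx6 probes shown are not the ones their levels rest on: they are second probes, shown because one of them shared the high value of the probe used on WT primary 2 and the other did not.
Keap1 (chr9:20981250-20981690, minus strand, spanning 441 bases): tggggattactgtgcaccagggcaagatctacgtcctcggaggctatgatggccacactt
Gclm (chr3:122251278-122253913, plus strand, spanning 2636 bases): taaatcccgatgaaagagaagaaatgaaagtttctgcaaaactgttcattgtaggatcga
Txnrd2 (chr16:18385803-18386406, plus strand, spanning 604 bases): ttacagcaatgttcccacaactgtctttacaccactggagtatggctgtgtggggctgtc
Prdx1 (chr4:116190905-116191675, plus strand, spanning 771 bases): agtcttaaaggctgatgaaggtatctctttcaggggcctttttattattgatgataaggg
Prdx2, one of its 3 probes (chr8:87860394-87860544, plus strand, spanning 151 bases): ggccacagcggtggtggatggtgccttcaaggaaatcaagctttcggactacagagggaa
Prdx6, one of its 4 probes (chr1:163083948-163084007, minus strand): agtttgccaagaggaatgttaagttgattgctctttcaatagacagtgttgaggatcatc

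A level is the log2 signal of a gene's probe minus the array's 75th percentile of signal, and each gene is represented by its probe with the highest mean. Levels of different probes are not compared with each other. Values of a group are given as replicate 1 and then replicate 2. A change between groups is a log2 difference relative to the median change of all 23129 genes tested, because that median itself moved between groups: by 0.29 (primary) and 0.45 (secondary) for KO against WT, and by -0.99 (WT) and -0.52 (KO) for secondary against primary recipients. The standard errors (SE) and p-values are those of limma's fit to the levels before this centring, with adjusted p under 0.05 as the threshold.

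Before the results, 3 facts on the arrays bear on every comparison. Replicate 2 of WT primary and replicate 2 of KO primary were dim: 41.9% and 35.4% of their spots were well above background, against 72.2% to 90.7% on the other 6 arrays. On these 2 arrays no probe below a level of -2.18 and -1.20 was marked as well above background, while on the others this bound lay between -6.46 and -5.00. Both WT groups were on 1 slide, KO primary on another and KO secondary on yet another, and a genotype difference cannot be told apart from a slide difference; only secondary against primary WT lay within 1 slide. The Tcf3 probe with the higher mean read -1.62 and 5.13 (WT primary), -2.09 and 2.37 (KO primary), 1.07 and 1.28 (WT secondary), and 1.33 and -1.36 (KO secondary), which overlap between genotypes. The other Tcf3 probe read 7.09 on KO primary 2, a dim array, and from -4.46 to -0.42 on the other 7. The sources used here do not say where the deletion lies relative to these probes, so they check no label. Of 12 HSC markers, 7 to 12 were well above background on each array, with a summed linear level of 27.4 to 1846 (WT primary), 12.4 to 38.0 (KO primary), 82.7 to 88.7 (WT secondary) and 59.0 to 88.3 (KO secondary). The 10 neutrophil markers summed to 247 to 10452 and 228 to 15833 in WT and KO primary recipients, against 6.49 to 10.9 and 10.9 to 25.2 in WT and KO secondary recipients, where S100a8, Lcn2 and Retnlg (WT) and Lcn2 (KO) were not well above background on either array. The erythroid markers (10 genes) summed to 12.8 to 53.7 in primary and 7.18 to 11.2 in secondary recipients. The 6 macrophage markers summed to 4.22 to 9.57 (WT primary), 9.79 to 28.4 (KO primary), 1.99 to 2.61 (WT secondary) and 4.59 to 11.8 (KO secondary). The KO sums were higher in both kinds of recipient, narrowly in primary ones. In secondary recipients Cd68 read -1.45 and -4.26 (WT) against 1.19 and 3.19 (KO), and C1qb was also higher in KO. Csf1r, Adgre1, C1qa and Vcam1 overlapped between genotypes there. The 3 T cell markers summed to 7.89 to 9.61 (WT primary), 1.99 to 2.81 (KO primary), 0.407 to 0.551 (WT secondary) and 0.777 to 8.33 (KO secondary). The 4 megakaryocyte markers summed to 7.31 to 39.5 in primary and 3.60 to 5.50 in secondary recipients. The 3 B cell markers summed to 3.68 to 7.50 and 1.63 to 7.39, and the 3 mast cell and basophil markers to 0.163 to 7.30 and 0.121 to 0.523. The part of all these cells in the results between recipients and between genotypes was not tested, and fewer cells of a type and less RNA per cell cannot be told apart here.

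The members were detected on most arrays. All 35 were well above background on WT secondary 1 and KO secondary 1, 34 on the replicate 2 arrays of both secondary groups, 32 on WT primary 1 and 33 on KO primary 1. On the dim arrays the number was 24 (WT primary 2) and 18 (KO primary 2). There were 17 members above background on all 8 arrays: Sod2, Sod3, Gpx1, Gpx3, Gpx4, Prdx2 to Prdx5, Txn2, Txnrd2, Keap1, Hmox1, Gsta4, Gstm1, Gstp1 and Srxn1. The range of a member over the 8 arrays had a median of 5.03 log2 units, from 2.14 for Prdx5 to 16.78 for Prdx6 (readings below background included), against a median of 4.58 for all genes tested. Replicates differed least in WT secondary, where the median member differed by 0.58 once the median gene's own difference was taken off (all genes 0.82), and most in WT primary, at 2.37 (all genes 1.53).

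**Figure D1:**
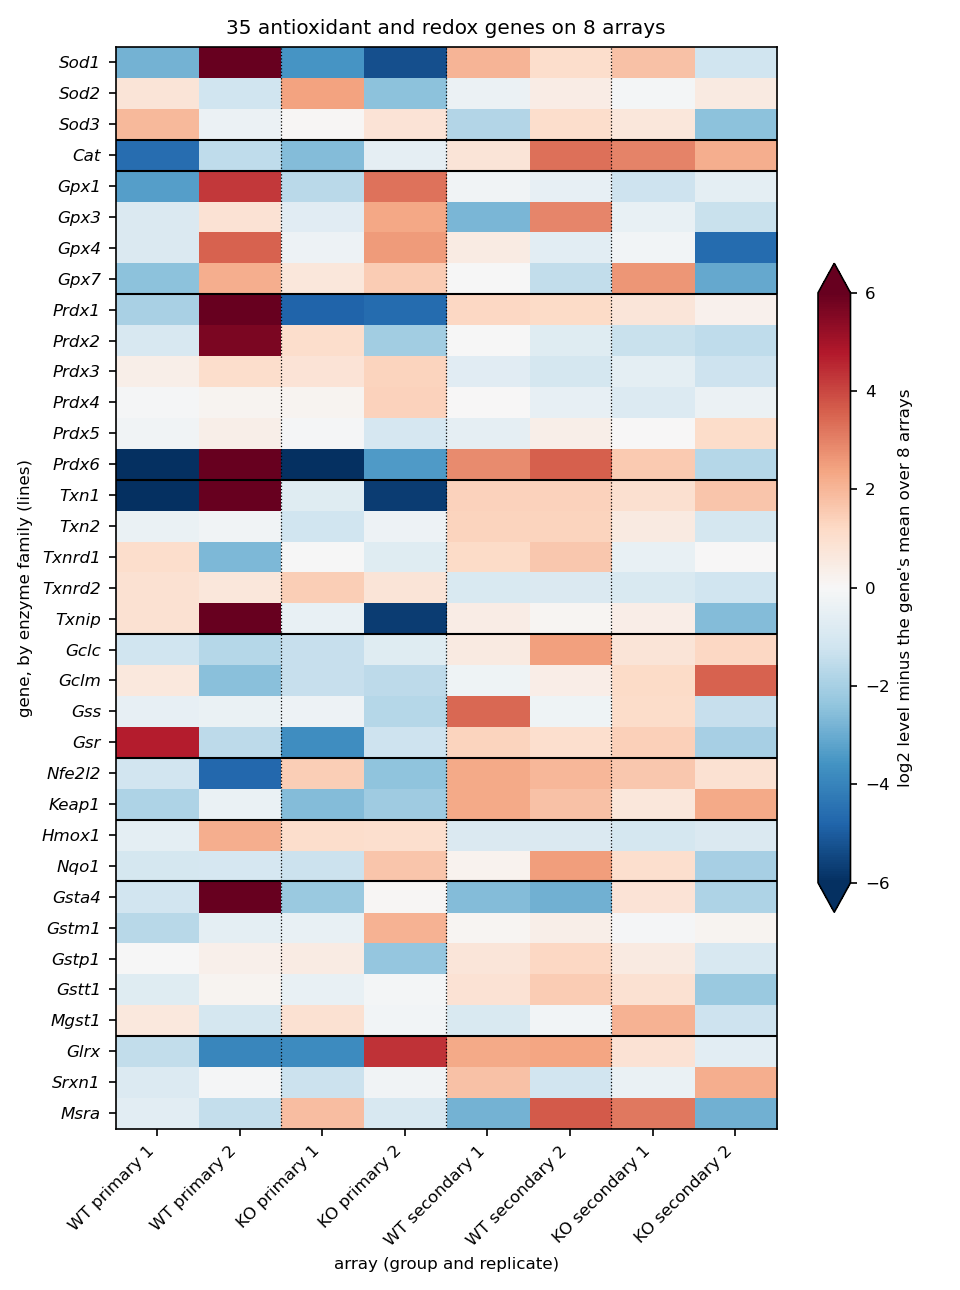
Levels of the 35 antioxidant and redox genes on the 8 arrays, grouped by enzyme family; colour is the log2 level minus the gene's mean over the arrays, clipped at plus and minus 6. WT primary 2 holds the strongest positive cells (Prdx6, Prdx1, Sod1, Txn1 and Gsta4), while Keap1 and Cat are above their means on all 4 secondary arrays.

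The members with the lowest adjusted p were those that separated secondary from primary recipients. KEAP1's gene and catalase's gene read higher on every secondary array than on any primary array, in both genotypes. So did Gclc, the catalytic subunit of the enzyme that starts glutathione synthesis. For catalase and Gclc some or all primary readings are only bounds, so the full separation of their arrays is not settled. In level, another 3 genes stood the other way without overlap: Prdx3 and Txnrd2, both mitochondrial thiol enzymes, and Hmox1, haem oxygenase 1, which breaks down haem. No member passed the threshold over all genes, in either genotype or over both.

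Keap1 levels were -0.36 and 1.07 (WT primary), -1.15 and -0.66 (KO primary), 3.73 and 3.24 (WT secondary), and 2.16 and 3.75 (KO secondary). The lowest secondary array thus lay above the highest primary one. Over both genotypes the change was 4.22 (SE 0.71, n = 4 arrays a side; adjusted p = 0.106, limma), and it was 4.12 (SE 1.07) in WT and 4.38 (SE 1.07) in KO.

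Cat had levels of -7.49 and -4.44 (WT primary), -5.52 and -3.47 (KO primary), -2.12 and 0.41 (WT secondary), and 0.06 and -0.76 (KO secondary). Its probe (chr2:103255342-103255401, mm8) was well above background on 0 of 4 primary and 4 of 4 secondary arrays, so the primary values are only bounds. The lowest level KO primary 2 could mark, -1.20, lay above the -2.12 of WT secondary 1, so full separation of the arrays is not settled. Set against the lowest signal called above background on the primary arrays, catalase was at least 6.93-fold higher in secondary recipients over both genotypes, at least 7.15-fold in WT and at least 6.72-fold in KO. The fitted log2 change was 5.35 (SE 0.99, adjusted p = 0.121, limma).

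NRF2's own gene, Nfe2l2, read -0.80 and -4.39 (WT primary), 1.78 and -2.08 (KO primary), 2.61 and 2.30 (WT secondary), and 1.96 and 1.23 (KO secondary). The WT groups did not overlap; in KO, replicate 1 of the primary group lay between the secondary arrays. The change was 4.12 (SE 1.23, adjusted p = 0.25, limma) over both genotypes, 6.04 (SE 1.64, adjusted p = 0.398) in WT and 2.26 in KO. A second probe of the gene gave 5.12 in WT and 1.81 in KO, and the remaining probe, above background on 2 arrays, gave -0.01 and -0.31.

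Glutathione synthesis starts with glutamate-cysteine ligase, a pair of the catalytic subunit Gclc and the modifier subunit Gclm. Gclc levels were -3.90 and -4.42 (WT primary), -4.08 and -3.44 (KO primary), -2.17 and -0.25 (WT secondary), and -1.94 and -1.46 (KO secondary). That is a change of 3.23 (SE 0.71, adjusted p = 0.22, limma) with no overlap of the readings over both genotypes. The lowest level KO primary 2 could mark, -1.20, lay above both KO secondary readings and WT secondary 1, so the separation is not settled. Gclm read -1.20 and -4.37 (WT primary), -3.25 and -3.43 (KO primary), -2.09 and -1.44 (WT secondary), and -0.70 and 1.67 (KO secondary). The KO groups stood apart while the WT groups overlapped, and the change was 3.15 (SE 1.03, adjusted p = 0.258) over both and 4.34 (SE 1.37, adjusted p = 0.718) in KO. On both dim arrays the readings of Nfe2l2, Gclc and Gclm were not well above background and are only bounds. Gss, which completes glutathione, reached 2.33 on WT secondary 1 and lay between -2.83 and -0.03 elsewhere.

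Glutathione reductase, Gsr, which recycles oxidised glutathione, showed no order by recipient. It stood at 4.74 and -1.54 (WT primary), -3.69 and -1.21 (KO primary), 1.35 and 1.04 (WT secondary), and 1.45 and -1.95 (KO secondary). A second Gsr probe overlapping the first in position gave a like pattern over the arrays, 3.73 and -4.20 in WT primary. The remaining probe gave a change between recipients of 5.06, against 1.62 for the probe used, so the probes of this gene disagree.

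**Figure D2:**
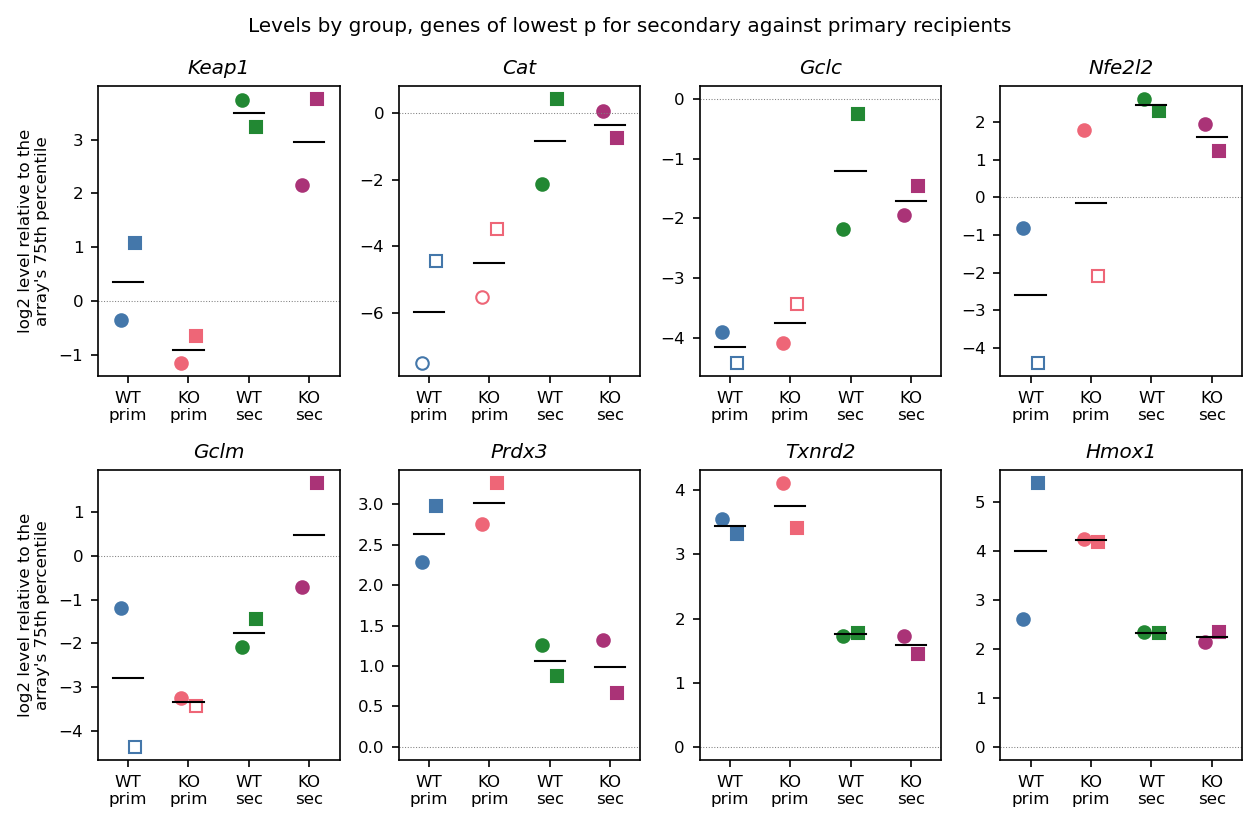
Levels (log2 signal minus the array's 75th percentile) of the members with the lowest p between recipients, by group; circles are replicate 1, squares replicate 2, filled symbols are well above background and the line is the mean. Keap1, Cat and Gclc read higher on all 4 secondary arrays than on any primary array, and Prdx3, Txnrd2 and Hmox1 lower. Open symbols, as for all primary readings of Cat, are only bounds.

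Among the genes standing lower in secondary recipients, Txnrd2, the mitochondrial thioredoxin reductase, had the lowest p. Its levels were 3.55 and 3.32 (WT primary), 4.11 and 3.41 (KO primary), 1.73 and 1.78 (WT secondary), and 1.73 and 1.44 (KO secondary). Replicates lay within 0.70 log2 units in all 4 groups, but the median gene was lower in secondary recipients too, and relative to it the change was -1.20 (SE 0.61, adjusted p = 0.245, limma). Its other probes, also above background on all 8 arrays, gave -0.96 and 0.19, so they disagree on the direction.

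Prdx3, the mitochondrial peroxiredoxin, read 2.28 and 2.98 (WT primary), 2.76 and 3.26 (KO primary), 1.26 and 0.87 (WT secondary), and 1.32 and 0.66 (KO secondary). Relative to the median gene that was -1.07 (SE 0.62, adjusted p = 0.25). Hmox1 stood at 2.61 and 5.39 (WT primary), 4.25 and 4.19 (KO primary), 2.35 and 2.32 (WT secondary), and 2.15 and 2.34 (KO secondary), a change of -1.09 (SE 0.76, adjusted p = 0.256). Its 4 secondary values ran only from 2.15 to 2.35. With normexp background correction the changes of these genes were near 0: -0.24 for Txnrd2, -0.09 for Prdx3 and -0.03 for Hmox1.

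Over the members as a list, more were higher than lower in secondary recipients. At an unadjusted p under 0.05, limma gave 5 of 34 members higher in secondary recipients (14.7%, against 5.51% of all genes tested) and 3 lower (8.82%, against 13.6%). None of the 23129 genes passed the adjusted threshold (0%), where the lowest adjusted p was 0.0571; without adjustment 4424 genes (19.1%) had p under 0.05. The 3 members without overlap in each direction were 8.82% of the members, against 3.17% of all genes for higher and 12.7% for lower. The median member change was 1.41, with 23 members above and 11 below the median gene, which is 0 by construction for all genes. Over the 17 members whose probes were above background on all 8 arrays it was 0.48, relative to the median of the 9853 genes passing that filter. Against the median of all 23129 genes most of these 17 lay below 0, from Gsta4 at -2.53 to Keap1 at 4.22. Within WT the median of the 34 members was 1.50, with 4 members (Cat, Gclc, Nfe2l2, Keap1) at an unadjusted p under 0.05, 11.8% against 12% of all genes. Within KO it was 0.89, also with 4 (Cat, Gclm, Keap1 and, lower, Txnrd2), against 6.03%. No gene was called within WT (0%; 2766 genes at p under 0.05 without adjustment; lowest adjusted p 0.325) or within KO (0%; 1394 genes; 0.70). In WT, 12 members were higher in secondary recipients without overlap (35.3%, against 15.3% of all genes) and 5 lower (14.7%, against 40%). In KO the numbers were 9 (26.5%, against 12.7%) and 4 (11.8%, against 28.4%). All these counts, for members and for all genes, take the readings as they stand, bounds included. Nqo1 and Gstt1 in WT, and Gclc and Prdx6 in KO, had a secondary reading below the level the dim primary array could mark. Their separation is thus not settled, nor is that of Cat and Gclc over both genotypes.

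These p-values test the level before centring. Tested against the median gene instead, an alternative chosen after seeing the data, Keap1 (adjusted p = 0.0371) and Cat (adjusted p = 0.0477) passed among 275 genes (1.19% of those tested), 271 of them higher. Without adjustment that test gave 6 of 34 members higher (Cat, Txn2, Gclc, Gclm, Nfe2l2 and Keap1; 9.6% of all genes) and 0 lower (1.95%). The lower members then had unadjusted p-values of 0.0826 (Txnrd2), 0.124 (Prdx3) and 0.187 (Hmox1). Over all the alternatives tried, the adjusted p ran from 0.0232 to 0.339 for Keap1 and from 0.0202 to 0.355 for Cat, with 2 of 19 and 2 of 18 alternatives under the threshold. Without both dim arrays the changes were 4.47 for Keap1 (adjusted p = 0.112), 6.39 for Cat (0.094), 3.03 for Gclc (0.26) and 2.03 for Nfe2l2 (0.418), so the Nfe2l2 value moved most of these. With normexp the changes were 1.96 for Cat and 1.08 for Gclc, each under the printed value by more than 1.5 times. Without both dim arrays, 10 of 34 members had an unadjusted p under 0.05, against 15.3% of all genes.

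The remaining named differences between recipients depended on 1 or 2 arrays. Gsta4, which conjugates glutathione to products of lipid peroxidation, read -0.45 and 10.51 (WT primary), -1.53 and 0.75 (KO primary), -1.92 and -2.18 (WT secondary), and 1.51 and -1.15 (KO secondary). Its WT change of -6.09 (SE 3.11, adjusted p = 0.413, limma) went from -11.61 to -0.87 as single arrays were left out, the array at 10.51 being WT primary 2. Gpx4, which reduces lipid peroxides within membranes, stood at 2.54 and 6.95 (WT primary), 3.07 and 5.97 (KO primary), 3.88 and 2.74 (WT secondary), and 3.24 and -1.23 (KO secondary). Its KO change of -2.99 (SE 2.02) followed replicate 2 of KO secondary and replicate 2 of KO primary, and ran from -4.92 to -0.87 as arrays were left out.

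One array carried very high values of a set of members. On WT primary 2, one of the dim arrays, 8 of 34 members had a level above 9, a bound chosen after the values were seen: Sod1, Gpx1, Prdx1, Prdx2, Prdx6, Txn1, Txnip and Gsta4. Of all genes tested, 3.24% were above 9 on that array. On KO primary 2, the other dim array, the only such member was Gpx1, with 1.94% of all genes, and on the remaining 6 arrays no gene reached 9.

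Sod1, the cytosolic superoxide dismutase, read -0.92 and 9.89 (WT primary), -1.65 and -3.38 (KO primary), 3.96 and 2.97 (WT secondary), and 3.68 and 0.70 (KO secondary). Prdx1, the main cytosolic peroxiredoxin, had the same shape, with -0.65 and 9.26 (WT primary), -3.49 and -3.29 (KO primary), 2.56 and 2.45 (WT secondary), and 2.05 and 1.56 (KO secondary). In both genes the arrays within each secondary group lay closer together than the WT primary pair, and the KO primary values were the lowest pair.

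Prdx6, a peroxiredoxin that also acts on phospholipids, ran from -6.72 on WT primary 1 to 10.06 on WT primary 2, where only the second reading was well above background; the first, and both KO primary readings, are bounds. Its other values were -5.99 and -3.30 (KO primary), 2.91 and 3.69 (WT secondary), and 1.67 and -1.61 (KO secondary). The cytosolic thioredoxin Txn1 read -3.62 and 9.42 (WT primary), 1.62 and -3.34 (KO primary), 3.77 and 3.74 (WT secondary), and 3.34 and 4.02 (KO secondary).

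Gpx1, the cytosolic glutathione peroxidase, was high on both dim arrays: 2.67 and 10.24 (WT primary), 4.38 and 9.23 (KO primary), 5.75 and 5.47 (WT secondary), and 4.73 and 5.40 (KO secondary). Apart from those arrays it kept within 2.67 and 5.75. Prdx2, the peroxiredoxin abundant in red cells, read 3.78 and 10.40 (WT primary), 5.77 and 2.63 (KO primary), 4.69 and 4.00 (WT secondary), and 3.41 and 3.19 (KO secondary).

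**Figure D3:**
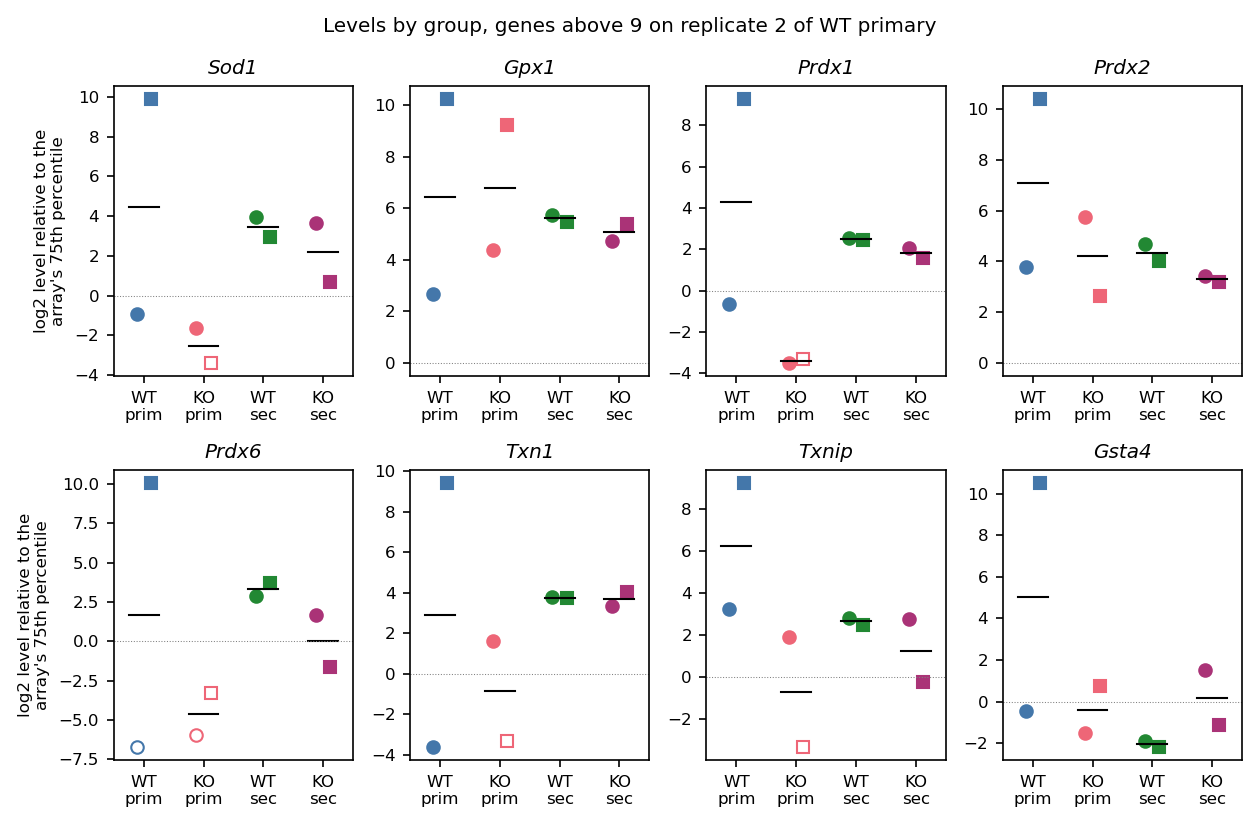
Levels (log2 signal minus the array's 75th percentile) of members above 9 on an array, by group; circles are replicate 1, squares replicate 2, filled symbols are well above background and the line is the mean. The square of WT primary lies above 9 in each of these genes, and the square of KO primary does so for Gpx1.

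Other probes of the same genes did not all show this. The 3 probes of Prdx2 read 10.40, 11.10 and 10.82 on WT primary 2. Of the 4 Prdx6 probes, the one used read 10.06 and the others -4.40, -4.11 and -4.48, below the level at which that array marked a probe as above background. The Prdx6 probe printed above gave 5.77 between recipients, against 3.88 for the probe used. Each of these probes was well above background on 5 arrays only, so both changes rest partly on bounds. For the printed probe the bounds were the readings of WT primary 1 and of both dim arrays. The other Sod1 probes read -4.33 and -3.90 on WT primary 2, and the other Txnip probe read -2.83.

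**Figure D4:**
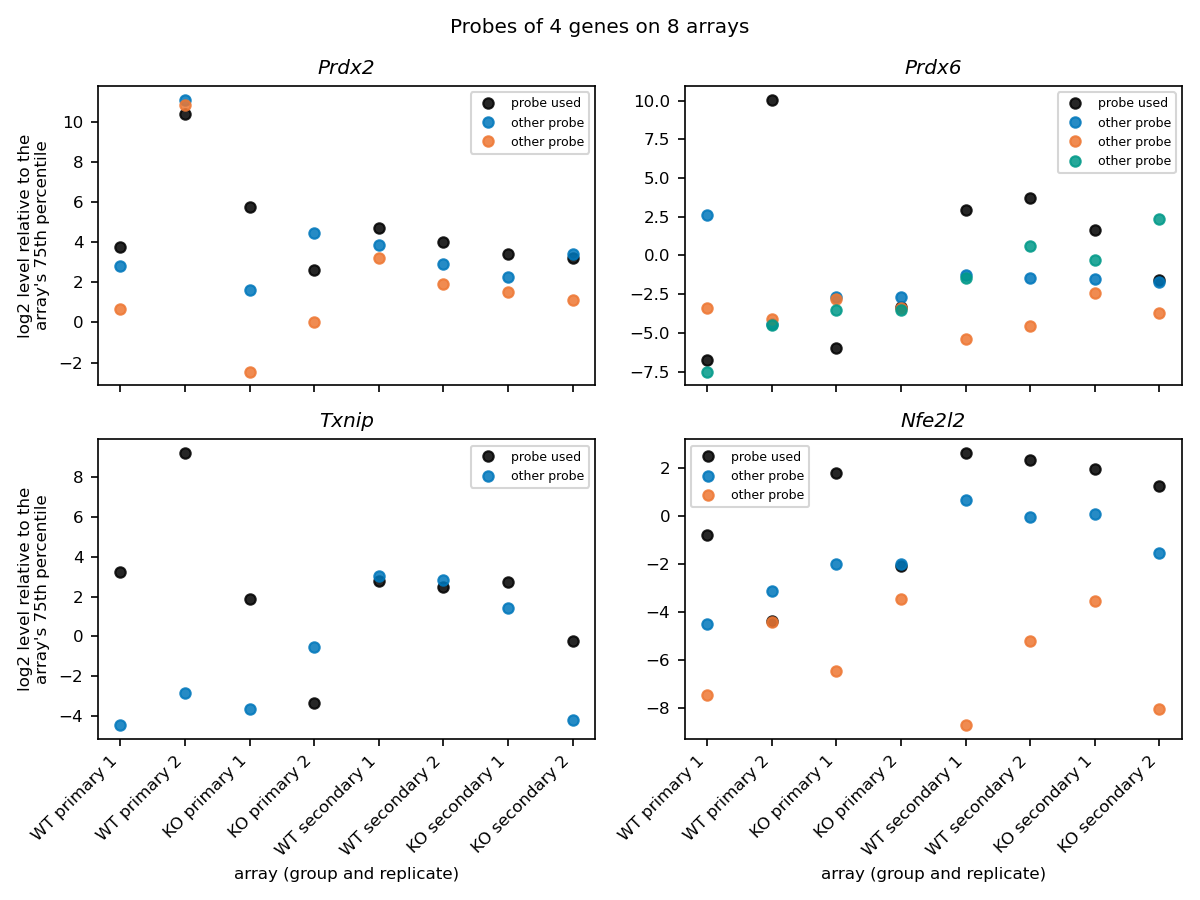
Levels of every probe of Prdx2, Prdx6, Txnip and Nfe2l2 on the 8 arrays (log2 signal minus the array's 75th percentile). All symbols are filled, whether or not the reading was well above background. The 3 Prdx2 probes are all above 10 on WT primary 2, whereas 1 of 4 Prdx6 probes and 1 of 2 Txnip probes is above 9 there.

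KO against WT in primary recipients leaned on WT primary 2 and on the other dim array, KO primary 2. The members of lowest p were all lower in KO: Txnip, Prdx1 and Sod1. Txnip, which binds thioredoxin and inhibits it, stood at 3.25 and 9.23 (WT), 1.90 and -3.35 (KO) in primary recipients, and at 2.81 and 2.46 (WT), 2.74 and -0.25 (KO) in secondary ones. None of these genes overlapped between genotypes in primary recipients. The changes were -7.26 for Txnip (SE 2.38), -7.98 for Prdx1 (SE 2.72) and -7.28 for Sod1 (SE 3.09), each with an adjusted p of 0.995 (limma). Their readings on KO primary 2 lay below the level that array could mark as above background. The other Txnip probe gave 1.25, so the Txnip probes disagree. The other Sod1 probes gave 0.38 and 0.15, but were above background on 5 and 1 of the 8 arrays and on neither dim array. Those differences thus rest partly or wholly on bounds. On the higher side the 3 of lowest p were Gstm1 at 1.66 (SE 1.15), Nfe2l2 at 2.16 (SE 1.64) and Glrx at 2.71 (SE 2.40), also at an adjusted p of 0.995.

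No gene was called (0%; 916 at an unadjusted p under 0.05), and 2 of 34 members, Prdx1 and Txnip, had an unadjusted p under 0.05, 5.88% against 3.96% of all genes. The members' median was -0.39, with 20 below the median gene; it was -0.62 without WT primary 1 and -0.07 without KO primary 2. Lower in KO without overlap were Sod1, Prdx1, Txnip and Keap1 (11.8% of members, 9.11% of all genes), and higher were Prdx4 and Gstm1 (5.88%, against 16.9%). Without both dim arrays, which leaves 1 array a group, assumed to vary like the others, the members' median was 0.06 with 14 below, and the changes were -1.50 for Txnip, -2.98 for Prdx1 and -0.87 for Sod1. Without WT primary 1, which leaves the dim array as the only WT primary one, limma called 542 genes (2.34%), 540 of them lower in KO, among them Sod1 (-12.54), Prdx1 (-12.79), Gsta4 (-11.04) and Prdx6. In that fit the lone WT primary array is assumed to vary like the other groups. Prdx6 was not well above background on either KO primary array, and Sod1 and Prdx1 on 1 of them only, so these sizes rest partly on bounds.

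Glutathione S-transferases couple glutathione to reactive compounds. Gstm1 read -0.24 and 0.86 (WT primary), 1.0 and 3.52 (KO primary), 1.57 and 1.77 (WT secondary), and 1.36 and 1.60 (KO secondary). The KO primary pair lay above the WT primary pair, and the secondary groups overlapped. A second Gstm1 probe gave -0.34 for KO against WT in primary recipients, with overlap, against 1.66 for the probe used, so the direction rests on the probe. Glrx, a glutaredoxin that frees proteins of bound glutathione, read -1.95 and -4.39 (WT primary), -4.23 and 3.88 (KO primary), 1.80 and 1.92 (WT secondary), and 0.42 and -1.10 (KO secondary). Its KO primary arrays were the lowest but one and the highest of the 8, and its change between genotypes in primary recipients was -2.42 without both dim arrays.

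In secondary recipients, KO arrays were lower than WT, relative to the median gene, for most members. The members' median change was -1.0, with 28 of 34 below the median gene, and ran from -1.51 (without KO secondary 1) to -0.74 (without KO secondary 2). Lower without overlap were 10 members (29.4%, against 12.3% of all genes): Gpx1, Prdx1, Prdx2, Prdx6, Txn2, Txnrd1, Txnrd2, Nfe2l2, Gstp1 and Glrx. Other probes of some of these genes disagreed on the direction: 0.32 and 0.81 for Txnrd2, -0.69, 1.41 and 1.01 for Prdx6, and -1.50 and 0.71 for Nfe2l2. Those of Prdx2 (-1.01 and -1.70), Gstp1 (-0.74) and Txn2 (-0.24) were also below 0, and the other listed genes had 1 probe. Higher without overlap were Gclm and Gsta4 (5.88%, against 34.0%). No member had an unadjusted p under 0.05 (0 of 34, against 5.37% of all genes), and none of the genes was called (0%; 1241 with p under 0.05 before adjustment, 0.756 as the lowest adjusted value). Neither dim array enters these group means, but both enter the pooled spread behind the SE and p-values. Prdx1 had an SE of 2.72 here, with secondary replicates 0.11 (WT) and 0.49 (KO) apart. WT and KO secondary were on different slides, and the 2 KO secondary replicates differed from each other by a median of 1.50 per member.

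Txn2, the mitochondrial thioredoxin, had the lowest p among the lower members: 1.57 and 1.58 (WT secondary), and 0.81 and -0.82 (KO secondary), a change of -2.03 (SE 1.02, adjusted p = 0.984, limma). In primary recipients it read -0.16 and 0.03 (WT), and -0.94 and -0.06 (KO). A second Txn2 probe, above background on 7 arrays, gave -0.24 in secondary recipients. It read -0.68 and -4.56 (WT) and -1.60 and -3.22 (KO), with overlap, so the size of the change rests on the probe. Gstt1, another glutathione transferase, stood at -2.28 and -1.62 (WT) against -2.26 and -5.39 (KO), a change of -2.33 (SE 1.24). Nqo1, a quinone reductase and a textbook target of NRF2, read -2.94 and -0.64 (WT) against -2.16 and -5.13 (KO), or -2.31 (SE 1.53). Both overlapped between genotypes, and in both KO replicate 2 was far lower than KO replicate 1. Of the members with higher values in KO, Gclm had a change of 1.80 (SE 1.37), Gsta4 of 1.78 (SE 3.11) and Mgst1, a membrane-bound transferase, of 0.49 (SE 1.36), all at an adjusted p of 0.984.

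**Figure D5:**
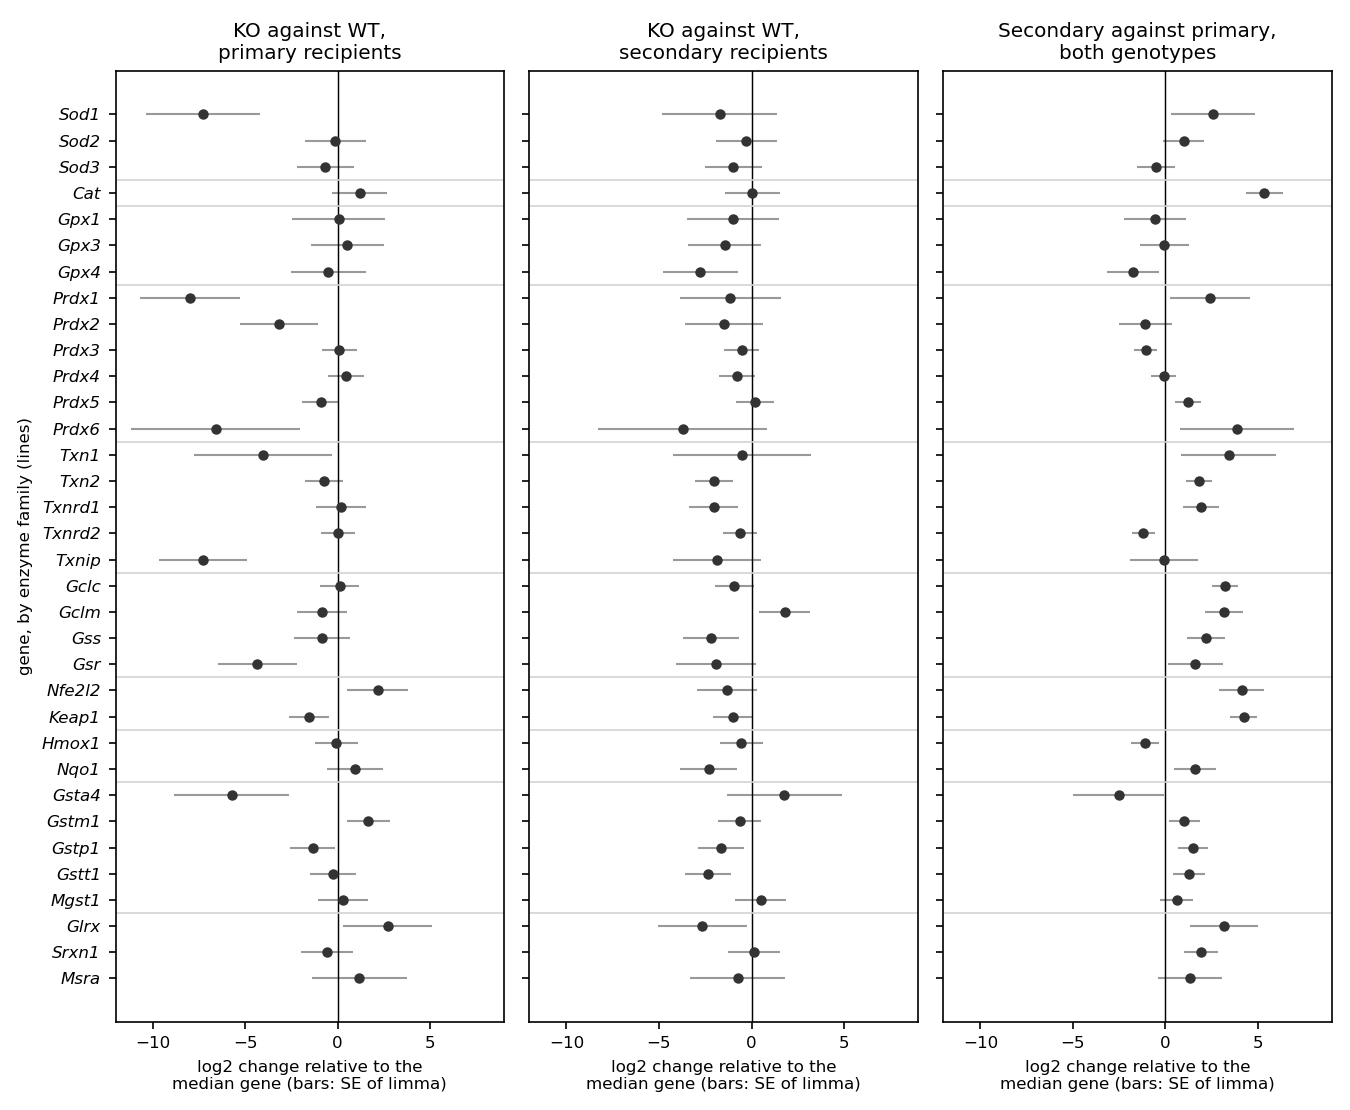
Log2 change of each member relative to the median gene for KO against WT in primary recipients, KO against WT in secondary recipients, and secondary against primary recipients over both genotypes; bars are limma's standard errors. In secondary recipients 28 of 34 members lie below 0 for KO against WT, and between recipients 23 of 34 lie above it.

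Over both recipients together, the genotype changes of lowest p were Txnip at -4.51 (SE 1.85, unadjusted p = 0.0518), Prdx1 at -4.53 (SE 2.17) and Gsr at -3.07 (SE 1.50), with Gstm1 at 0.55 (SE 0.84), Cat at 0.66 (SE 0.99) and Mgst1 at 0.43 (SE 0.90) on the other side. All had an adjusted p above 0.85, as limma gave 0.852 as the lowest over all genes. No gene was called (0%; 1079 genes, 4.67%, at an unadjusted p under 0.05, and 0 members). The members' median was -0.54, with 27 of 34 below the median gene; it was -0.87 without WT primary 1 and -0.32 without WT secondary 2, the ends of its range over arrays left out. No member separated all 4 KO arrays from all 4 WT arrays, against 1.31% of all genes higher and 0.484% lower. Tested against the median gene, Txnip had an unadjusted p of 0.039 and an adjusted p of 0.952, the 1 member of 34 under 0.05 against 3.87% of all genes.

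The difference between the genotype effects in the 2 kinds of recipient was tested as an interaction, and no gene passed (0%), the lowest adjusted p being 1; 865 genes (3.74%) and 0 of 34 members had p under 0.05 before adjustment. The values of lowest p were Gsta4 at 7.38 (SE 4.40), Prdx1 at 6.73 (SE 3.85) and Txnip at 5.31 (SE 3.37), and on the negative side Nqo1 at -3.34 (SE 2.16), Glrx at -5.46 (SE 3.40) and Nfe2l2 at -3.57 (SE 2.33). The positive values of Gsta4, Prdx1 and Txnip include the WT primary 2 readings above 9; without both dim arrays they were 2.93, 1.76 and -0.42.

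The other members complete the families. Sod2, the mitochondrial superoxide dismutase, read 2.89 and 0.93 (WT primary), 4.52 and -0.36 (KO primary), 1.77 and 2.56 (WT secondary), and 2.02 and 2.64 (KO secondary). Its secondary arrays lay within the span of the primary ones. Sod3, the extracellular enzyme, ran from -3.90 to 0.53 with no order by group, and Gpx3, the secreted glutathione peroxidase, from -5.45 to 0.24.

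Prdx5, which is found in mitochondria and peroxisomes, was the least variable member: 0.81 and 1.41 (WT primary), 0.98 and 0.01 (KO primary), 0.52 and 1.39 (WT secondary), and 1.05 and 2.15 (KO secondary). Prdx4, the peroxiredoxin of the endoplasmic reticulum, was nearly as steady, between -1.99 and 0.21. The KO primary pair of Prdx5 lay just below its KO secondary pair, its other groups overlapped, and Prdx4 overlapped between recipients over both genotypes.

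Txnrd1, the cytosolic thioredoxin reductase, ran from -3.39 on WT primary 2 to 0.93 on WT secondary 2, and its KO secondary pair, -1.12 and -0.68, lay below its WT secondary pair, 0.47 and 0.93. Gstp1 was at 2.55 and 2.88 (WT primary), 3.06 and 0.24 (KO primary), 3.28 and 3.82 (WT secondary), and 3.12 and 1.61 (KO secondary), with the replicate 2 array of each KO group as the lowest values. Mgst1 lay between -4.48 and -1.16 on all arrays. Srxn1, sulfiredoxin, which restores overoxidised peroxiredoxins, ran from 0.01 to 3.46 with replicates of the secondary groups 2.91 and 2.56 apart. Msra, a methionine sulfoxide reductase, had secondary pairs of -5.16 and 1.36 (WT) and 0.83 and -5.21 (KO), the widest replicate gaps of any member in those groups. Gpx7, the untested member, lay between -8.09 and -2.36.

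A wider list of 51 redox genes, of which 50 could be tested, gave the setting of the members. None of the 50 passed the threshold in any comparison. Between recipients, 11 had an unadjusted p under 0.05 (22.0%, against 19.1% of all genes), 6 of them higher and 5 lower in secondary recipients, and the median was 0.78. Oxr1, an oxidation resistance factor, had the lowest p of all: -4.98 and -4.42 (WT primary), -4.42 and -3.43 (KO primary), 0.01 and 0.89 (WT secondary), and -0.16 and 0.93 (KO secondary), a change of 5.46 (SE 0.68, adjusted p = 0.0571, limma). Selenop, the plasma selenium carrier, had a change of 6.09 (SE 0.98, adjusted p = 0.0866), from between -7.09 and -2.91 on primary to between 0.37 and 1.38 on secondary arrays. Neither KO primary reading of Selenop was well above background, which gives at least 18.2-fold higher in secondary recipients within KO. The readings of Oxr1 on both dim arrays lay below their bounds as well, so the log2 changes of both genes rest partly on bounds. The 2 lower genes of lowest p were Mt1, a metallothionein, at -3.23 (SE 1.31, adjusted p = 0.25), and Ncf1, the p47phox subunit of the phagocyte NADPH oxidase, at -1.04 (SE 0.68, adjusted p = 0.251). Mt1 was highest on the dim arrays, at 8.33 and 8.20, and the other primary arrays read 3.77 and 3.41 against 1.11 to 2.49 on secondary ones.

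For KO against WT over both recipients, 7 of the 50 had an unadjusted p under 0.05 (14.0%, against 4.67% of all genes): Ccs, the copper chaperone of superoxide dismutase, higher, and Gstz1, Sesn1, Fth1, Pgd, Idh2 and Nnt lower. The rule for naming gave Ccs at 1.59 (SE 0.79) and G6pdx, which makes NADPH, at 1.86 (SE 1.05), with Idh2, a mitochondrial NADPH source, at -7.65 (SE 2.04) and Fth1, ferritin heavy chain, at -4.23 (SE 1.49), each at an adjusted p of 0.852 (limma). Idh2 was not well above background on either KO primary array, so its log2 change is not an exact size. Set against the bounds there, it was at least 228-fold lower than the WT primary mean. That mean rests on 1.46 and 8.01, the second being the dim array WT primary 2. Fth1 likewise read 4.91 on WT primary 2, its highest value, and -3.23 on KO primary 2, below the level that array could mark. The Fth1 change thus rests partly on a bound. In secondary recipients, where neither dim array enters the means, it was -3.36 (SE 2.18). How far the 7 genes as a set depend on the dim arrays was not tested. No gene of the list separated all KO from all WT arrays.

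The antioxidant response element was looked for in promoters because many of the members are textbook targets of NRF2. The core searched was TGACNNNGC, on both strands, in the 250 bases before each start in RefSeq's table (GRCm38.p6). It was found in 6 of the 28 members that have a promoter in the table (21.4%), against 3112 of 27025 genes (11.5%). The members not in the table were Sod3, Prdx6, Gclc, Gsr, Hmox1, Gsta4 and Msra. Each match is in capitals; where it begins with GC, the core is on the opposite strand. A match is a description of these letters, and factor binding was not measured.
Sod1 (chr16:90220691-90220729): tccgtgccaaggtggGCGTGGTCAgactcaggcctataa
Prdx1 (chr4:116685451-116685489): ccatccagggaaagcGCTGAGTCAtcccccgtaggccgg
Txnrd1 (chr10:82859099-82859137): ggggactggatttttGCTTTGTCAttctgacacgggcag
Gclm (chr3:122245408-122245446): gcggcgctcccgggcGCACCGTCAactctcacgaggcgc
Nfe2l2 (chr2:75704880-75704913, gene on the minus strand): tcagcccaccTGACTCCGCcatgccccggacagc
Mgst1 (chr6:138140456-138140494): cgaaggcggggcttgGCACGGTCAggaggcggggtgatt

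These 6 genes did not share a pattern over the arrays. Between recipients over both genotypes, Gclm and Nfe2l2 were among the higher members given above, while Prdx1 and Sod1 had their highest values on WT primary 2. Txnrd1 and Mgst1 had no difference at an unadjusted p under 0.05, and Keap1 and Cat, whose promoters are in the table, held no match in this window.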

How the data were processed

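The deposited scanner files hold spot intensity on a linear scale, which per the file headers Agilent Feature Extraction 10.5.1.1 had background-subtracted. The deposited series matrix is a ratio to each array's median (median 1, ratio of 0.999946 to 1.000052 to the scanner value); it served as an alternative. Further steps by the authors are not given in the sources used. Probe positions are the files' own, in mm8. Spots marked as outliers were left out and no spot was saturated. Of 41048 probes, 24309 were named by their first accession with RefSeq's table, 121 by another, 4635 by a probe of the same name and 4186 by the file; 7797 kept no name. A gene was tested where both arrays of some group marked one of its probes as well above background. Groups were compared with limma 3.58.1 (R 4.3.3), one fit over 4 groups and an additive fit of genotype and recipient for comparisons over all 8 arrays, with Benjamini-Hochberg adjustment; the script was checked on simulated data. Members and lists were chosen with earlier results of these data known. All members are accounted for; in each comparison the 3 of lowest p in each direction are named, and of the wider list the 2 of lowest p in each direction over all arrays. Alternatives were normexp (offset 50), quantile scaling, array medians, matrix values, other probe filters, the mean of a gene's probes, blocks for replicate and slide, leaving out arrays, and, added after seeing the data, the test against the median gene. The limit on precision is the 2 arrays per group.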

Additional observations from a re-analysis of the deposited data

How the results depend on the processing

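No gene was called in any comparison but 2 under any alternative that could be fitted. Between recipients over both genotypes, where none was called, the count was 1 with normexp, 231 with quantile scaling, 31 with the mean of a gene's probes, 46 with slide as a random block, 80 without both dim arrays and 275 when tested against the median gene; the cause was not tested, except that the last has another zero point. Keap1 (4.93, adjusted p = 0.0232) and Cat (6.23, adjusted p = 0.0202) passed with quantile scaling, and both passed when tested against the median gene. The members' median there was 0.48 with the 17 members whose probes were above background on all 8 arrays, relative to the median of the 9853 genes of that fit. That filter leaves out Cat, Gclc and Nfe2l2. Leaving out single arrays gave 0 to 542 calls for KO against WT in primary recipients, 542 without WT primary 1, and a members' median of 0.48 to 1.65 between recipients in KO, highest without KO secondary 2. Directions that turned, with the cause not tested, were Glrx for KO against WT in primary recipients (-2.42 without both dim arrays), Gstm1 over both recipients (-0.10 with normexp, -0.05 without both dim arrays), Cat over both recipients (-0.02 with normexp), Txnrd2 (0.23) and Prdx3 (0.35) between recipients in WT with normexp, and the Txnip interaction (-0.37 with the mean of probes, -0.42 without both dim arrays). Leaving out single arrays also turned Nfe2l2 (-0.02 to 4.65) and Glrx (-0.78 to 6.51) in primary recipients, Mgst1 in secondary recipients (-1.19 to 2.21), and Gstm1 (-0.03 to 0.85), Cat (-0.01 to 1.27) and Mgst1 (-0.23 to 1.05) over both. Same-numbered arrays deviated together little (correlations of -0.0258 to 0.15, the highest between the primary groups). Such correlations cannot exclude a pairing of the arrays, which the labels do not give. With replicate number as a block, 0 genes were called in every comparison. Slide as a random block could not be fitted beside the 4 group means.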
